A study of Caenorhabditis elegans with 2 samples.

Results

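The genes described here encode RNA-binding proteins of the nematode Caenorhabditis elegans that coat messenger RNA: sqd-1, hrpa-1, hrpr-1 and hrpk-1 of the hnRNP type, the Y-box genes cey-1, cey-2, cey-3 and cey-4, and vig-1, which belongs to neither family. They were chosen by name from what the genes encode, after sqd-1 and vig-1 were seen among the 20 strongest peaks of the data, and they are 9 of 19985 annotated protein-coding genes. All 9 symbols were found in the annotation. The data are peak lists from chromatin immunoprecipitation followed by sequencing (ChIP-seq) of ZK546.5, a protein with a zinc finger, in whole L2 larvae of mixed sex. The worms were of strain OP231, with the genotype unc-119(ed3) III; wgIs231, and stably expressed ZK546.5 with GFP and FLAG at its C terminus. There is 1 group of 2 biological replicates, both with this genotype, and no group without the tagged protein or with another treatment was analysed here. The promoter that drives the transgene is not given in the sources used here, and neither is read depth. In whole worms, binding in fewer cells and weaker binding per cell cannot be told apart.

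Heterogeneous nuclear ribonucleoproteins (hnRNPs) bind nascent transcripts and act in their splicing, export, stability and translation. Y-box proteins carry a cold-shock domain and package messenger RNA in the cytoplasm, where in C. elegans the CEY proteins are known to support large polysomes. CEY-2 and CEY-3 are known as proteins of the germ line, while CEY-1 and CEY-4 are also made in the soma. The germ line of an L2 larva is still a small part of the animal.

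The sequences below are those on which the strongest peaks of these genes were centred, together with that of a Y-box gene without a thresholded peak for contrast. Each reaches 50 bases to either side of the summit of the gene's strongest listed peak, read on the gene's own strand from WBcel235 (RefSeq), which is the ce11 assembly. None of the 4 windows overlaps an annotated exon. In sqd-1 and hrpa-1 capitals mark the longest word that the windows share, in vig-1 a GC box (GGGCGG on either strand) and in cey-1 a run of T (TTTTTTTT on either strand).
sqd-1, chrIV:6323821-6323921, plus strand: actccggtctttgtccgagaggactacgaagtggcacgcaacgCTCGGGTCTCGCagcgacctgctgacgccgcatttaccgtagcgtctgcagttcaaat
vig-1, chrII:1320564-1320664, plus strand: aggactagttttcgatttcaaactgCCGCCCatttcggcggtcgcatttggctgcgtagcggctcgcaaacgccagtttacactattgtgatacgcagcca
hrpa-1, chrIV:3338875-3338975, minus strand: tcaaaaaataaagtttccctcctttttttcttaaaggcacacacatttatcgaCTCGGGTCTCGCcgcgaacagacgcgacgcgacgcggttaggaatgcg
cey-1, chrII:11041280-11041380, minus strand: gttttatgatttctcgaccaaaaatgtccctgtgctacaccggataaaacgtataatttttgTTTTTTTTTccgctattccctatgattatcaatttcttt

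A thresholded peak was found at the promoter of 4 of the 9 genes: sqd-1, vig-1, hrpa-1 and hrpk-1. The strongest were those of sqd-1 and vig-1, and none of the 4 Y-box genes had one. The promoter window of a gene began 1000 bp before any of its annotated 5' ends and stopped 200 bp after it, and a peak was counted where its summit lay in that window. The thresholded list holds the 491 peaks that the authors kept by the irreproducible discovery rate (IDR), and the pooled list holds 30000 peaks and background regions called on both replicates together. Each peak has a signal, the authors' own value, which ranks peaks within a list and is not on a shared scale between lists. Among all protein-coding genes, 578 of 19985 (2.89%) had a thresholded summit in the window. Since sqd-1 and vig-1 were picked for their peaks, nothing is read from the 4 of 9 against that share, nor from the 0 of 4 Y-box genes, since most genes have no such peak.

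**Figure D1:**
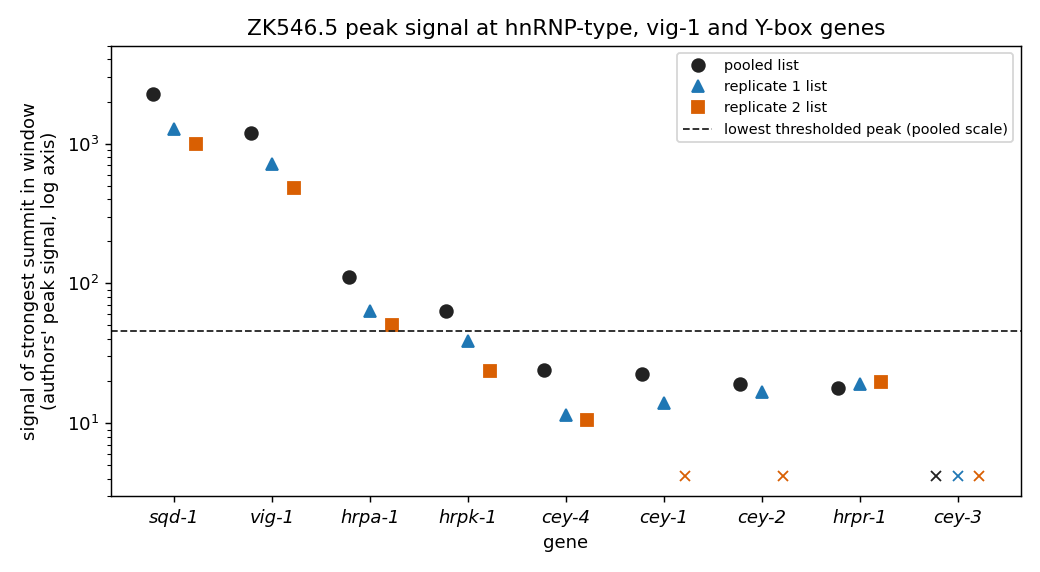
Signal of the strongest summit in each gene's promoter window (log axis) in the pooled list and in the list of each replicate. Crosses at the bottom mark a list with no summit in the window, and the dashed line is the lowest thresholded peak on the pooled scale (45.9). The pooled values of sqd-1, vig-1, hrpa-1 and hrpk-1 lie above that line, those of the other genes below it, and cey-3 has crosses in each list.

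The gene sqd-1, named after the Drosophila hnRNP gene squid, had the highest signal of the 9. Its summit reached 2257 in the pooled list (rank 6 of 30000), 1271 in replicate 1 (rank 7 of 19076) and 998 in replicate 2 (rank 4 of 30000). The rank was thus in the first 10 of each list. The peak spanned chrIV:6323630-6324100, with the summit 303 bp upstream of the most upstream 5' end, and no annotated gene covers the summit. No other gene had this summit in its window. The signal was 30.3 times the median of the thresholded list and made up 2.31% of that list's summed signal. Only 7 of the 8159 protein-coding genes with any pooled summit in the window had a stronger one.

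A second thresholded peak lay farther upstream of sqd-1. Its signal was 263.5 (rank 58) in the pooled list, 176.0 in replicate 1 (rank 57) and 83.7 in replicate 2 (rank 76). This summit was 2280 bp from the 5' end of sqd-1 and outside its window, but 35 bp from the 5' end of the protein-coding gene Y73B6BL.29. It is therefore not counted for sqd-1.

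The gene vig-1 encodes a homologue of Drosophila VIG, a protein found in the RNA-induced silencing complex (RISC). Its summit reached 1183 in the pooled list, 713 in replicate 1 and 480 in replicate 2, and its rank was 19 in each of the 3 lists. The peak spanned chrII:1320413-1320836, with the summit 423 bp upstream of the only annotated 5' end of vig-1 and 119 bp upstream of the piRNA gene 21ur-13751. No other protein-coding gene had it in its window. The replicate summits were 3 bp apart. The next thresholded summit on the far side of vig-1 was 1244 kb away.

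The gene hrpa-1 encodes the worm homologue of hnRNP A1, a shuttling protein with RNA recognition motifs. Its summit stood at 111.6 in the pooled list (rank 157), 63.2 in replicate 1 (rank 167) and 50.6 in replicate 2 (rank 141). The level was thus above the median of the thresholded list, which was 74.6. The peak spanned chrIV:3338747-3339102, and the summit stood 58 bp before the most upstream of 10 annotated 5' ends. A weaker pooled summit (17.0, rank 12397) lay 179 bp downstream of another of these ends, in coding sequence.

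The gene hrpk-1 encodes a protein with KH domains like hnRNP K, and is known in C. elegans as a modulator of microRNA activity. Its summit had a signal of 63.4 in the pooled list (rank 309), 38.9 in replicate 1 (rank 319) and 23.5 in replicate 2 (rank 414). The pooled value was below the median thresholded peak, and in each list the rank was within the first 491. The position of this peak set it apart from those of sqd-1, vig-1 and hrpa-1. The summit lay 223 bp downstream of the most upstream 5' end, inside an intron of hrpk-1, and 110 bp upstream of the nearest of the 6 annotated 5' ends. With only the most upstream 5' end of each gene, hrpk-1 was lost from the count. No other gene had this summit in its window.

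The remaining hnRNP-type gene, hrpr-1, which encodes a homologue of hnRNP R and Q, had no thresholded peak. Its strongest summits were 17.7 in the pooled list (rank 10698), 19.0 in replicate 1 (rank 1949) and 19.8 in replicate 2 (rank 559). The replicates' own summits thus ranked higher than the pooled one. They did not fall at the same place: that of replicate 1 was 849 bp upstream of the 5' end, that of replicate 2 was 596 bp and the pooled one 582 bp upstream. A tRNA gene had the pooled summit in its window too, 386 bp away.

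The Y-box genes that are also made in the soma had only summits below the threshold. For cey-4 the strongest was 23.9 in the pooled list (rank 3122), 11.4 in replicate 1 (rank 14264) and 10.45 in replicate 2 (rank 6513). These were not all at the same place: that of replicate 1 was 888 bp upstream of the 5' end and that of replicate 2 was 669 bp upstream. Replicate 1 also listed a summit of nearly the same signal (11.2) 633 bp upstream, and the pooled list a weaker one (13.6) 870 bp upstream. The strongest pooled summit was 669 bp upstream of cey-4 and nearer to its neighbour vps-50, where it lay 179 bp downstream of the 5' end. With a window of 500 bp upstream the value for cey-4 was 14.5, from a summit 19 bp downstream of its own 5' end. For cey-1 the strongest was 22.45 in the pooled list (rank 4159) and 13.96 in replicate 1 (rank 7269), and replicate 2 listed no summit in the window. The pooled summit of cey-1 stood 124 bp before its 5' end.

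Of the germline Y-box genes cey-2 and cey-3, the former had weak summits and the latter none. For cey-2 the pooled summit was 19.1 (rank 8156) and that of replicate 1 was 16.6 (rank 3542), and replicate 2 listed none in the window. In the pooled list that was below cey-1 and cey-4, and in replicate 1 above both. The pooled summit was 135 bp upstream of cey-2 and 883 bp upstream of the divergent gene xrep-4. For cey-3 no summit lay in the window in any list, as for 8536 of 19985 protein-coding genes (42.7%). The nearest thresholded summits to cey-3 were 143.0 kb away on one side and 648.0 kb on the other, and those to cey-2 were 189.6 and 601.4 kb away. Both genes are on chromosome I, and the same pair of peaks, at atp-3 with F27C1.2 and at rps-17, flanks both.

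Read as somatic or broadly expressed against germline-restricted genes, 4 of 7 against 0 of 2 had a thresholded peak. The 4 include sqd-1 and vig-1, which were picked for their peaks, and 2.89% of all protein-coding genes had one, so no difference between the groups is read from these counts. The pooled list held a summit in the window for 7 of 7 and for 1 of 2, where 8159 of 19985 protein-coding genes (40.8%) had one. In the list of replicate 1 it was 8 of the 9 genes, where 29.4% of protein-coding genes had a summit, and in that of replicate 2 it was 6, where 41.1% had one. The 3 somatic genes without a thresholded peak were at 17.7 to 23.9 in the pooled list, and cey-2 at 19.1 lay inside that range. Below the threshold the values of the germline gene and of the somatic genes thus overlapped. How much the small number of germ cells in these larvae bears on the values was not tested. Among the 9 genes the threshold fell in a wide gap. The weakest gene above the threshold, hrpk-1, stood at 63.4, the list's lowest peak at 45.9, and cey-4, the strongest gene below it, at 23.9. Other protein-coding genes had pooled values between 23.9 and 63.4, so the gap belongs to the chosen genes and not to the list.

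**Figure D2:**
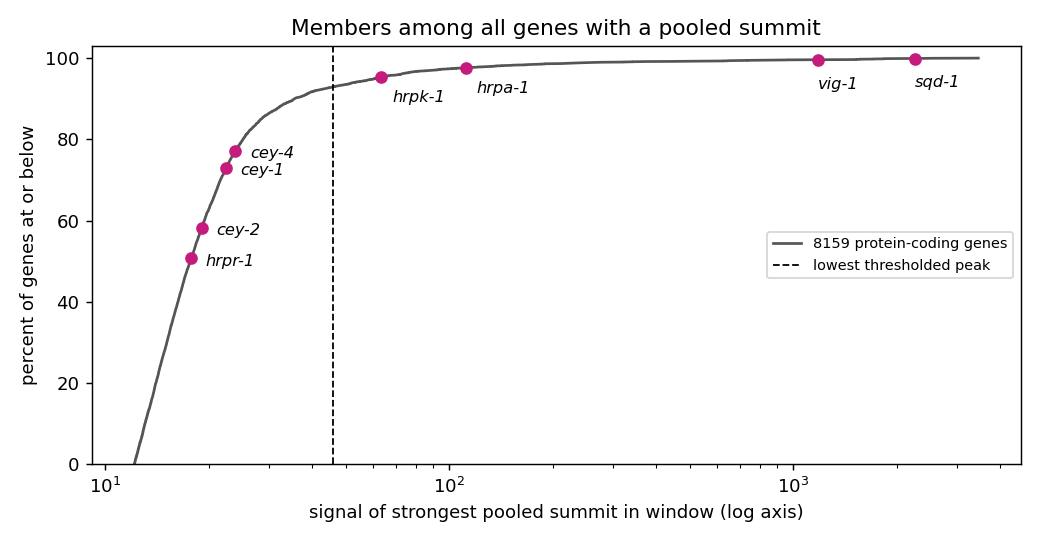
Share of the 8159 protein-coding genes with a pooled summit whose strongest summit is at or below a given signal (log axis), with 8 of the 9 genes as points and the lowest thresholded peak (45.9) as a dashed line. The 4 genes with a thresholded peak lie at the top of the curve, and hrpr-1, cey-2, cey-1 and cey-4 lie on its steep part; cey-3 has no value.

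Set against the other genes with a pooled summit, the signals of the 4 genes ranged widely. A lower strongest signal was found for 99.9% of genes in the case of sqd-1, for 99.6% in that of vig-1, for 97.6% in that of hrpa-1 and for 95.3% in that of hrpk-1. The other 4 genes with a value stood near or above the median of 17.65. Lower signals were found for 77.1% of genes with cey-4, 73.0% with cey-1, 58.1% with cey-2 and 50.7% with hrpr-1. These shares describe the list and are no test. Of the 8159 genes, 578 (7.08%) had a thresholded summit.

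**Figure D3:**
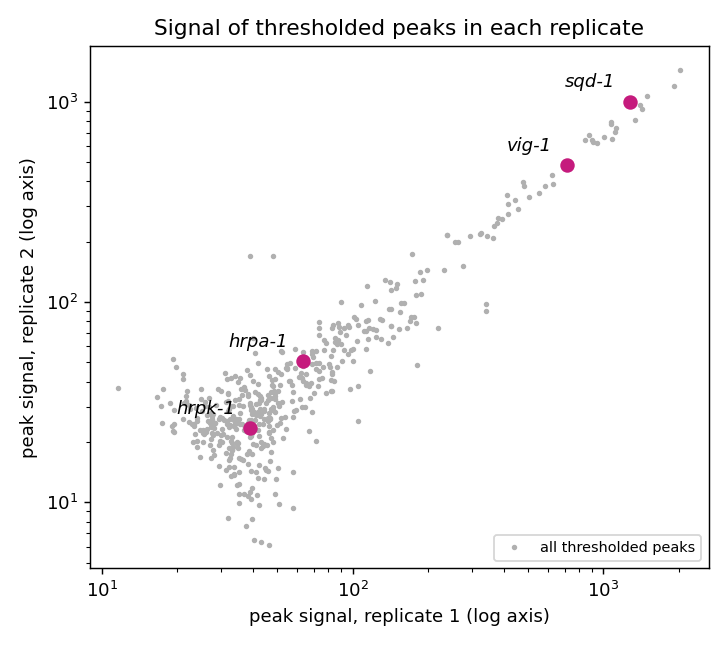
Signal of each thresholded peak in replicate 1 and replicate 2 (both log axes), taken at the replicate summit nearest to the thresholded one. The points of sqd-1 (1271 and 998) and vig-1 (713 and 480) lie in the narrow upper part of the cloud, and those of hrpa-1 (63.2 and 50.6) and hrpk-1 (38.9 and 23.5) in its broad lower part.

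The replicates placed the 4 peaks at nearly the same bases. Their summits were 19 bp apart at sqd-1, 3 bp at vig-1, 27 bp at hrpa-1 and 8 bp at hrpk-1. Over all 491 thresholded peaks the median distance was 22 bp and the upper quartile 47.5 bp. All 4 genes were also found when either replicate's own 491 strongest peaks were used. Those lists gave 2.77% of protein-coding genes in each replicate, and 2.12% had a strong summit in both. The 4 peaks are among the strongest 491 of the pooled list, which was called on both replicates together. Their agreement was thus in part given by that choice.

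**Figure D4:**
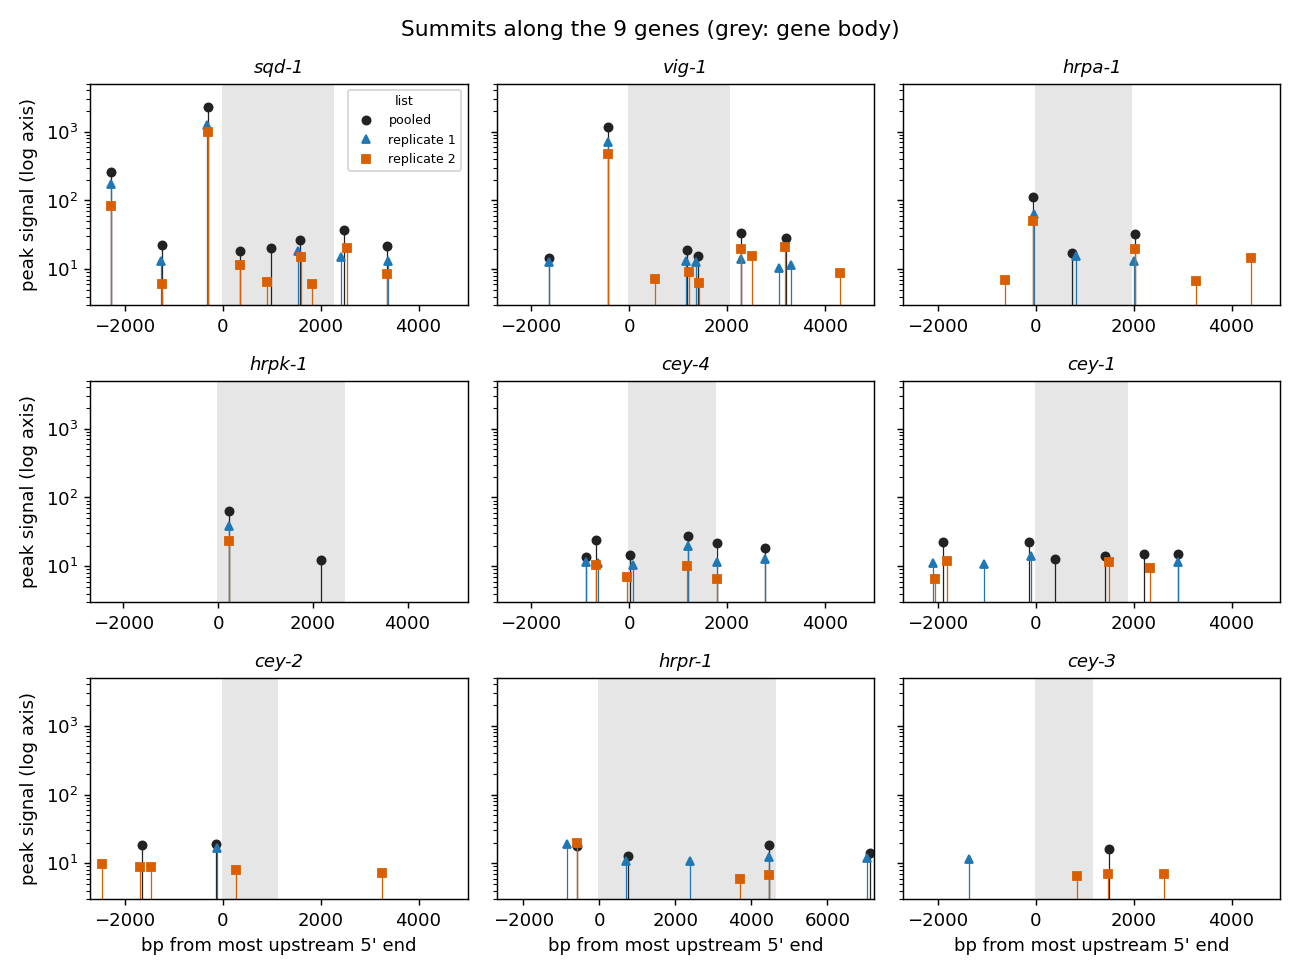
Summits of the pooled and replicate lists along each gene, by distance from its most upstream 5' end in bp, with signal on a log axis and the gene body in grey. A summit above 1000 stands upstream of sqd-1 and of vig-1, hrpa-1 has its highest summit at its 5' end, that of hrpk-1 is inside the gene, and the other genes have only summits below 30.

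Apart from the hrpk-1 peak, only weak regions were listed inside the genes. In the pooled list the strongest such summit was 26.4 in sqd-1, 19.0 in vig-1, 17.0 in hrpa-1, 18.2 in hrpr-1 and 27.7 in cey-4. No pooled summit lay inside cey-2 or cey-3. The intronic one of cey-4 (rank 1666) was thus stronger than the summit in its promoter window. At sqd-1, vig-1 and hrpa-1 a further region stood just past the 3' end, and a range of 300 bp around the 3' end was chosen for it after these values were seen. There the pooled signal was 37.4 for sqd-1, 33.2 for vig-1 and 32.2 for hrpa-1. The 3 regions ranked 522, 566 and 593 in replicate 2 but 5542, 6836 and 8535 in replicate 1. A pooled summit below the threshold lay in that range, on either side of the 3' end, for 5 of the 9 genes. The same held for 4098 of all 19985 protein-coding genes (20.5%). The share was 32.5% of those with a thresholded summit in the window and 25.7% of the others with a pooled one. The other 2 of the 5 were at cey-4 (22.1) and hrpr-1 (18.2). That of hrpr-1 lay 167 bp before the 3' end and is the summit inside the gene given above. Among the genes with a thresholded summit the median was 18.6 and the 90th percentile 30.9, and sqd-1, vig-1 and hrpa-1 were above both. Among the others with a pooled summit these were 16.8 and 25.5, and cey-4 and hrpr-1 were between them. The range of 300 bp was chosen after the values were seen, so nothing is read from these positions. Each of the 3 regions also lay in the window of a neighbour: that of sqd-1 was 126 bp from the 5' end of lsm-8, that of hrpa-1 9 bp from F42A6.6 and that of vig-1 497 bp from the non-coding gene F56D12.10.

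The windows printed above, and those of the other genes made in the same way, differed in base composition. They held 58.4% G and C at sqd-1, 52.5% at vig-1, 48.5% at hrpa-1 and 56.4% at hrpk-1. The median was 48.5% over the 491 thresholded summits and 32.7% over the 29509 other pooled ones. The Y-box windows were near the latter, with 31.7% at cey-1, 33.7% at cey-4 and 37.6% at cey-2. The window of hrpr-1 had 54.5% without a thresholded peak.

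The windows of sqd-1 and hrpa-1, both printed above, share a word of 12 bases, CTCGGGTCTCGC, on the strand of the gene in each. Its centre was 2 bp upstream of the summit at sqd-1 and 8 bp downstream of it at hrpa-1, read along the gene. The word was picked from these sequences, so its counts are a description. It was in 3 of the 491 thresholded windows (0.611%) and in 1 of the 29509 others, on either strand. The 3 include the windows of sqd-1 and hrpa-1, from which the word was picked. The 4 parts of 9 bases of this word were in 5, 7, 21 and 36 thresholded windows. The most frequent of them, the last 9 bases GGGTCTCGC, was in 36 thresholded windows (7.33%), among them 7 of the 50 strongest. It was in 75 of the others (0.254%). These counts include the windows of sqd-1 and hrpa-1 too, and that of sqd-1 is among the 7. The median G and C share was 48.5% in the thresholded windows and 32.7% in the others, which these counts do not take into account. The vig-1 window shared at most 7 bases with that of sqd-1 and at most 6 with that of hrpa-1.

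Of 11 common promoter motifs, searched on both strands, the windows of sqd-1, vig-1, hrpa-1, cey-1 and cey-4 held 2. Windows on chromosome I, those of hrpk-1, hrpr-1 and cey-2, were left out, since their sequence is not shown here. With windows reaching 100 bp to each side, 8 pairs of a motif and a gene were found in place of 2. A GC box lay 22 bp upstream of the summit at vig-1, and 7.13% of thresholded and 2.14% of other windows had one. A run of T lay 16 bp downstream of the summit at cey-1, against 4.68% and 19.4% of windows. None of these 5 windows held a GAGA repeat (GAGAGA), which 20.98% of thresholded and 5.77% of other windows had. The others searched were the E-box (CACGTG), the GATA site (GATAAG), the CCAAT box (CCAAT), the AP-1 site (TGACTCA), an E2F-like site (TTCCCGC), the CRE core (TGACGT), the TATA box (TATAAA) and a CTCC repeat (CTCCNCC), and 0.407% to 15.7% of thresholded windows had one of these.

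The genes most like sqd-1 and vig-1 were taken as those with the nearest log2 signals over the pooled and both replicate lists, among 3403 protein-coding genes with a summit in all 3. For sqd-1 these were icd-2, of the complex that binds nascent polypeptides (distance 0.16 on the log2 scale), the alpha-tubulin gene tba-2 (0.21) and ekl-4 (0.30). For vig-1 they were ntl-2 of the CCR4-NOT complex (0.29), ubl-1, a ubiquitin-like fusion with a ribosomal protein (0.42), and pqn-59 (0.53). No other of the 9 genes was among them. The pooled signal of ekl-4 (2539) was also that of the ribosomal protein gene rps-20. In the same way that of pqn-59 (965.9) was also that of taf-4.

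Other RNA-binding genes were counted in the same way, beside 2.89% of all protein-coding genes with a thresholded summit and 40.8% with any pooled one. Among 19 further genes of hnRNP type or related families, 2 had a thresholded summit, the stronger being that of tiar-1, the TIA-1 homologue (222.5, rank 69). The tiar-1 summit was 208 bp upstream of that gene but 107 bp from lelo-4. Among these 19, 17 had any pooled summit, with a median signal of 19.7 against 17.65 for all such genes. Of 22 RNA-binding genes of germline messenger ribonucleoproteins, 3 had one, which fell to 1 with the nearest protein-coding 5' end only and to 0 with a window of 500 bp upstream. They were mex-1 (137.1, 913 bp upstream), atx-2, the ataxin-2 homologue (91.8, 609 bp), and cgh-1, a DDX6-type helicase gene (50.96, 761 bp). The list of replicate 1 held no summit in the window of cgh-1, which was lost without replicate 2. Nearer protein-coding 5' ends were found at mex-1 and atx-2, and 11 of the 22 had any pooled summit. The share of these genes in germ cells was not measured.

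Genes of related steps in the life of a messenger RNA also had peaks in part. Of 9 RISC and microRNA effector genes, related to vig-1 by function, 1 had a thresholded summit, nhl-2, which encodes a TRIM-NHL cofactor of microRNA silencing (247.9, 866 bp upstream, with tag-340 nearer). Of 15 CCR4-NOT and messenger decay genes 2 had one, ntl-2 (1057, rank 20) and ntl-11 (125.2, rank 139). Of 12 SR protein and splicing genes 4 had one: prp-8, the core spliceosome gene (627, rank 35), and the SR protein genes rsp-6 (111.1), rsp-5 (100.4) and rsp-7 (60.1). As shares these are 11.1%, 13.3% and 33.3%, against 2.89% of all protein-coding genes, and no test of them was made.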

How the data were processed

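ChIP-seq peak lists of 2 biological replicates were used; replicate numbers come from the labels. Per the submitters' records, peaks and background regions were called on each replicate and on both together against a control library, and IDR gave the thresholded list. The sources used here give no aligner, caller, IDR threshold or depth, so no counting interval is given. The signal values were deposited by the authors as the peak signal against that control. The width was a constant 356 bp for 99.6% of pooled and 77.2% of thresholded peaks, so most widths carry no information. The 491 thresholded peaks are the strongest 491 of the pooled list. Lists on the ce10 build were not used.

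Coordinates are ce11, 1-based; 5' ends are those of Ensembl release 115 (WBcel235). Trans-splicing removes the start of many worm messages, so transcription can begin upstream of an annotated 5' end. Python 3.11.15 with pandas 2.3.3 and numpy 2.4.6 was used. The window search was tested on simulated summits. The gene tiar-3 and the gene ntl-1 had no match by symbol and were left out of their lists. No test was made, since there is 1 group and the members and lists were chosen with earlier results of these data known. Named are the 9 genes, other genes with their thresholded summit in the window, up to 4 genes with the strongest peaks per list, and the 3 nearest in signal to sqd-1 and vig-1. A single gene covered by this rule is not reported here. Genes outside this rule (Y73B6BL.29, lsm-8, F42A6.6, F56D12.10, atp-3, F27C1.2, rps-17 and the neighbours at other summits) and the shared word were picked after their values were seen. Alternatives covered window sizes, the midpoint, peak overlap, the nearest 5' end, the upper part of the thresholded list by signal, each replicate's list and, for motifs, a longer window.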

Additional observations from a re-analysis of the deposited data

How the results depend on the processing

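The counts of 4 of 9 genes and 4 of 7 somatic genes stayed at 4 with windows of 500 or 2000 bp upstream, with midpoints, with peak overlap, with the nearest protein-coding 5' end only and without either replicate (4 to 4); no germline gene was called in any of these. They were 3, without hrpk-1, among the thresholded peaks ranked up to the middle of the list and, in an alternative chosen after seeing the data, with the most upstream 5' end only. With the nearest 5' end only, protein-coding genes with a thresholded summit fell from 578 to 382, the other hnRNP-type genes from 2 to 1, the germline list from 3 to 1 and the RISC list from 1 to 0. With 500 bp upstream the germline list went to 0 and the RISC list to 0. The peaks up to the middle rank gave 299 protein-coding genes, 2 genes of the germline list and 3 of the SR protein and splicing list. Leaving out a replicate gave 553 to 553 protein-coding genes, 2 to 3 germline genes and 1 to 2 RISC genes. It also gave 2 to 3 CCR4-NOT and messenger decay genes. With motif windows reaching 100 bp to each side, 8 motif and gene pairs were found in place of 2. The pooled signal of cey-1 was 22.6 with 2000 bp, and hrpr-1 had no summit within 500 bp. No paired analysis was possible because the samples form 1 group.

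Read depth, peak caller and details of the control library were not given, so the error of a single signal cannot be stated. The 2 replicates are on different scales and give no SD.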
